A study of Mus musculus with 32 samples.

Results

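The AMPA and kainate receptor subunits are the products of the genes Gria1 to Gria4 and Grik1 to Grik5. Every probe of the Illumina MouseRef-8 v2.0 BeadChip whose deposited symbol was one of these 9 names was taken. Probes were found for 8 of the 9 genes, of 18138 gene symbols on the array, and Grik3 had no probe under its symbol. The 8 genes are 4 AMPA subunits and 4 kainate subunits with 15 probes in all. Of these, 11 probes of 6 genes were bright enough to be tested, and the 4 others are described by their signal.

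Messenger RNA was profiled in the frontal cortex (FCtx) of 32 female F1 hybrid mice of the strains C57BL/6J and FVB/NJ, with 1 array per mouse. The 20 ethanol-treated mice chose freely between water and 20% ethanol for a limited span of the dark phase on each of 20 days, in a form of the drinking-in-the-dark test, and the 12 controls were untreated animals of the same cross. Both groups came from reciprocal matings, the study's text places them in early adulthood without an age, and the brains were taken 20 hours after the last session, so the arrays describe a cortex some time after drinking rather than during it. The intake was voluntary and its amount per mouse was not analysed here. The tissue was a dorsal slab of several frontal areas that holds all their cell types, and in such bulk RNA fewer cells of a type and less RNA per cell cannot be told apart.

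The arrays lay on 4 chips of 8, and treatment was not spread evenly over them. Chips 1 and 2 held 16 ethanol-treated mice, chip 4 held 8 controls, and chip 3 held 4 ethanol-treated mice at odd positions and 4 controls at even positions. Treatment and chip therefore cannot be told apart between chips 1, 2 and 4, and treatment and position cannot be told apart on chip 3. The chip 4 arrays were the dimmest, with a median signal between 146 and 168 against 166 to 203 on the other chips, and single arrays detected 9480 to 11544 probes.

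AMPA and kainate receptors are cation channels that glutamate opens, and AMPA receptors carry most of the fast excitatory current at synapses of the cortex. An AMPA receptor is a tetramer of Gria subunits, and its calcium permeability is kept low by the RNA-edited form of the Gria2 product. Kainate receptors are tetramers of Grik subunits that act on both sides of the synapse, where the products of Grik1, Grik2 and Grik3 form channels by themselves and those of Grik4 and Grik5 bind glutamate tightly and join them. Ethanol is known to inhibit both receptor types when applied to neurons.

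Each level below is the signal of a 50-base probe, so the sequences set which transcripts a value can count. The 7 probes shown are those of the 3 AMPA subunits on which the results turn, apart from the second Gria2 probe. They are written 5′ to 3′ in lower case as deposited, with the bases that the overlapping Gria1 probes share in capitals.

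Gria1 ILMN_1248802: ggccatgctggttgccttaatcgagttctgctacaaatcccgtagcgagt

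Gria1 ILMN_2648006: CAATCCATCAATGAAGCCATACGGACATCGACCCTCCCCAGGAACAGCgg

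Gria1 ILMN_2648012: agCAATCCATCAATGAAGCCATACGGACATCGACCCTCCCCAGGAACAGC

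Gria2 ILMN_3122922: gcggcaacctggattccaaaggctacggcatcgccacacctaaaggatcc

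Gria3 ILMN_1223636: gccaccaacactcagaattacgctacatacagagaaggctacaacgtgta

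Gria3 ILMN_1238789: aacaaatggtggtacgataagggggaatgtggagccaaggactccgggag

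Gria3 ILMN_2638066: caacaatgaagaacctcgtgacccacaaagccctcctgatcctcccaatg

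All 7 probes hold at least 1 reading frame free of stop codons, which short sequences often do, so this does not place them in coding sequence. The Gria1 probes ILMN_2648006 and ILMN_2648012 shared 48 of their 50 bases, offset by 2 letters although their annotated starts lie 3 bases apart, so they are repeat measurements of 1 site rather than separate evidence. The remaining pairs of probes of 1 gene shared runs of at most 6 bases. The deposited annotation places the Gria1 probes on the forward strand at chr11:57131239-57131288, chr11:57140966-57141015 and chr11:57140963-57141012, and the Gria2 probe ILMN_3122922 at chr3:80496214-80496263. The 3 Gria3 probes lie at chrX:39025567-39025616, chrX:39022739-39022788 and chrX:38963345-38963394. The build of these positions is not given in the sources used here, and it is not the reference annotation GRCm38.p6, in which 8.47% of 19792 probes with 1 block fell inside their own gene. The second Gria2 probe, ILMN_2680737, has no position in the deposited annotation.

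The deposited signals ranged from background to among the brightest of the array. The median over 32 arrays was 5617 for the Gria2 probe ILMN_2680737 and 2721 for ILMN_3122922, and both were detected on 32 arrays. The Gria1 probes had medians between 474 and 863, the Gria3 probes between 259 and 440, Grik5 513, Grik1 ILMN_1243701 318 and Grik4 218. These values say how far each probe stood above background and do not rank the genes, because probes differ in how well they bind.

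**Figure D1:**
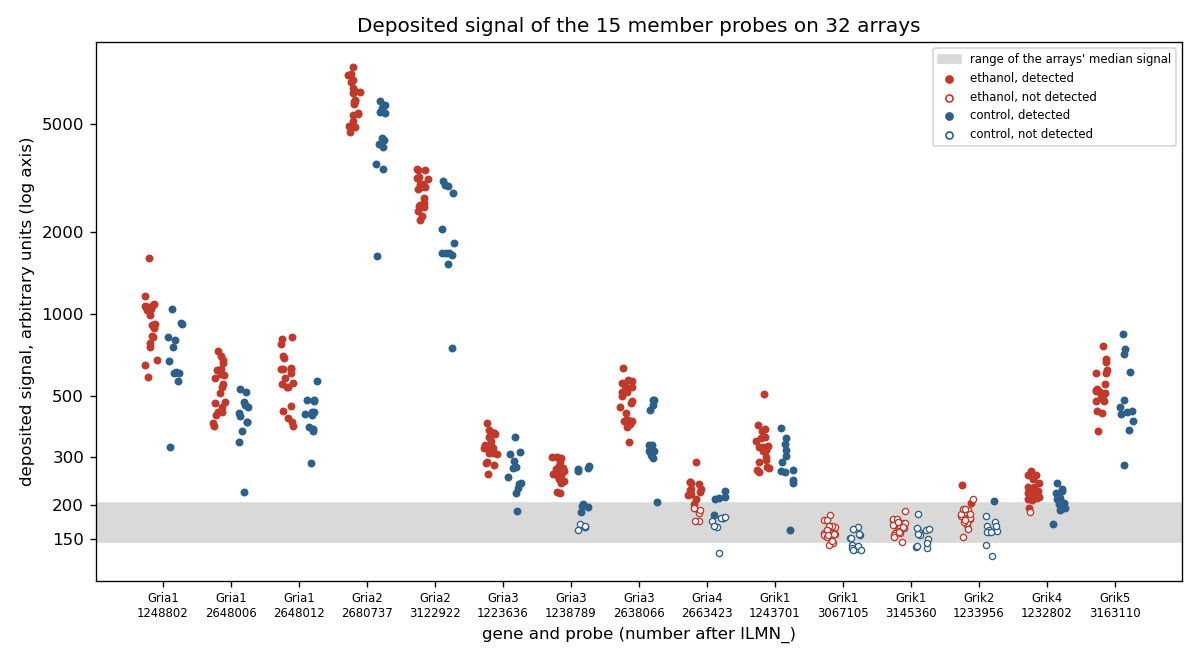
Deposited signal (arbitrary units, log axis) of the 15 probes on each of the 32 arrays, red for ethanol-treated mice and blue for controls, open where the detection p-value was 0.01 or more, with the range of the arrays' median signal (146 to 203) in grey. Both Gria2 probes stand far above this band on every array, while Gria4, Grik2 and 2 of the 3 Grik1 probes lie in or near it.

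Across all arrays, Gria2 was the only member called at a false discovery rate (FDR) of 1%. Both of its probes were higher in ethanol-treated mice, by 1.23-fold and 1.25-fold, while none of the 9 probes of the other genes passed. The Gria1 and Gria3 probes, which did not pass, also had 95% intervals that were wholly positive. The levels below are on a variance-stabilized log2 scale after quantile normalization, and the adjusted p-values are those of limma over the 10187 probes tested. So 2 of 11 member probes were called higher and 0 lower, where 3.49% of all probes were called higher, 4.71% lower and 8.21% in either direction. The median log2 difference was 0.13 over the 11 member probes and -0.0027 over all probes tested. Of the 11, 9 were positive, beside 48.4% of all probes. These 11 probes belong to 6 genes, so their signs are not separate observations. Uneven signs were also seen where treatment does not enter. Positive were 9 of 11 for odd minus even positions and 8 of 11 for controls of chip 3 minus chip 4. For chip 1 minus chip 2 of ethanol-treated mice, 3 of 11 were positive. Under a looser rule, a 1.1-fold change at an FDR of 10%, 4 member probes were called higher and 0 lower. Of all probes, 11.2% were called by that rule, 5.84% higher and 5.37% lower. The 4 were both Gria2 probes, Gria1 ILMN_2648012 and Gria3 ILMN_2638066.

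The Gria2 probe ILMN_3122922 ranged from 11.09 to 11.60 with a median of 11.32 over the 20 ethanol-treated mice, and from 10.62 to 11.49 with a median of 10.86 over the 12 controls. The log2 difference was 0.33 ± 0.073 (SE), with an adjusted p of 0.00209. All 20 ethanol-treated mice lay above the control median, but 3 of the 12 controls lay above the ethanol median. The call ended with chip as a random block (0.25, adjusted p = 0.0459) and with median scaling (0.38, adjusted p = 0.0290).

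The spread of the controls followed the chips. On chip 4 the 8 controls lay between 10.62 and 10.95, with a mean of 10.78 ± 0.11 (SD, n = 8). On chip 3 the 4 controls had levels of 11.33, 11.49, 11.38 and 11.20, with a mean of 11.35 ± 0.12 (SD, n = 4). The 2 sets of controls did not overlap. The share of all probes for which sets of arrays did not overlap is not given, here or below.

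The ethanol-treated mice of chip 3 had levels of 11.51, 11.39, 11.33 and 11.16, a mean of 11.35 ± 0.14 (SD, n = 4) that lay on that of the controls beside them. Those of chips 1 and 2 had means of 11.19 ± 0.10 and 11.37 ± 0.12 (SD, n = 8 each). In order of level, the chip 4 controls were lowest, ethanol chip 1 next, and control chip 3, ethanol chip 3 and ethanol chip 2 followed with means of 11.35, 11.35 and 11.37. Between chips 1 and 2 of ethanol-treated mice the difference was -0.18 ± 0.051 (SE, adjusted p = 0.105), which did not pass.

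Within chip 3 the ethanol difference of this probe was -0.0034 ± 0.074 (SE), with a 95% interval from -0.16 to 0.16 and an adjusted p of 0.985. Between chips 1 and 2 and chip 4 it was 0.50 ± 0.053 (SE), a 1.42-fold difference with an adjusted p of 3.63e-07. All 16 ethanol-treated mice of chips 1 and 2 lay above all 8 chip 4 controls. The contrast of the chip 3 difference with that between the other chips was -0.51 ± 0.091 (SE, adjusted p = 0.000849).

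The gap between chips was present at both kinds of position. At odd positions alone the difference between chips 1 and 2 and chip 4 was 0.46, and at even positions 0.55, both called. Controls at even positions were 0.61 ± 0.067 (SE, adjusted p = 0.000413) higher on chip 3 than on chip 4. The difference between odd and even positions within chips 1, 2 and 4 was 0.014 ± 0.043 (SE, adjusted p = 0.870).

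The second Gria2 probe, ILMN_2680737, reads another stretch of the transcript and was the brightest member probe. It ranged from 12.06 to 12.84 with a median of 12.43 over the ethanol-treated mice, and from 11.76 to 12.42 with a median of 12.13 over the controls. The log2 difference over all arrays was 0.30 ± 0.07 (SE, adjusted p = 0.00343). In 17 of 20 ethanol-treated mice the level was above the control median, and no control reached the ethanol median. This call also ended with the random block (0.26, adjusted p = 0.0601) and with median scaling (0.34, adjusted p = 0.0489).

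On chip 3 the levels of ILMN_2680737 were 12.55, 12.58, 12.39 and 12.33 in ethanol-treated mice and 12.39, 12.42, 12.29 and 12.25 in controls. The groups overlapped, and the difference was 0.12 ± 0.064 (SE), with a 95% interval from -0.014 to 0.26 and an adjusted p of 0.240. On chip 4 the controls lay between 11.76 and 12.28, and chips 1 and 2 exceeded them by 0.40 ± 0.081 (SE, adjusted p = 0.000789).

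At odd positions alone this gap was 0.36 (adjusted p = 0.0299), which did not pass, and at even positions 0.44 (adjusted p = 0.00631). Of this probe, 11 of 16 ethanol-treated mice of chips 1 and 2 lay above every chip 4 control. Odd positions were higher than even ones by 0.20 ± 0.065 (SE, adjusted p = 0.0373) within chips 1, 2 and 4, which is more than the chip 3 difference. As chip 3 held its ethanol-treated mice at odd positions, the part of position in the chip 3 value cannot be told apart from that of treatment.

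**Figure D2:**
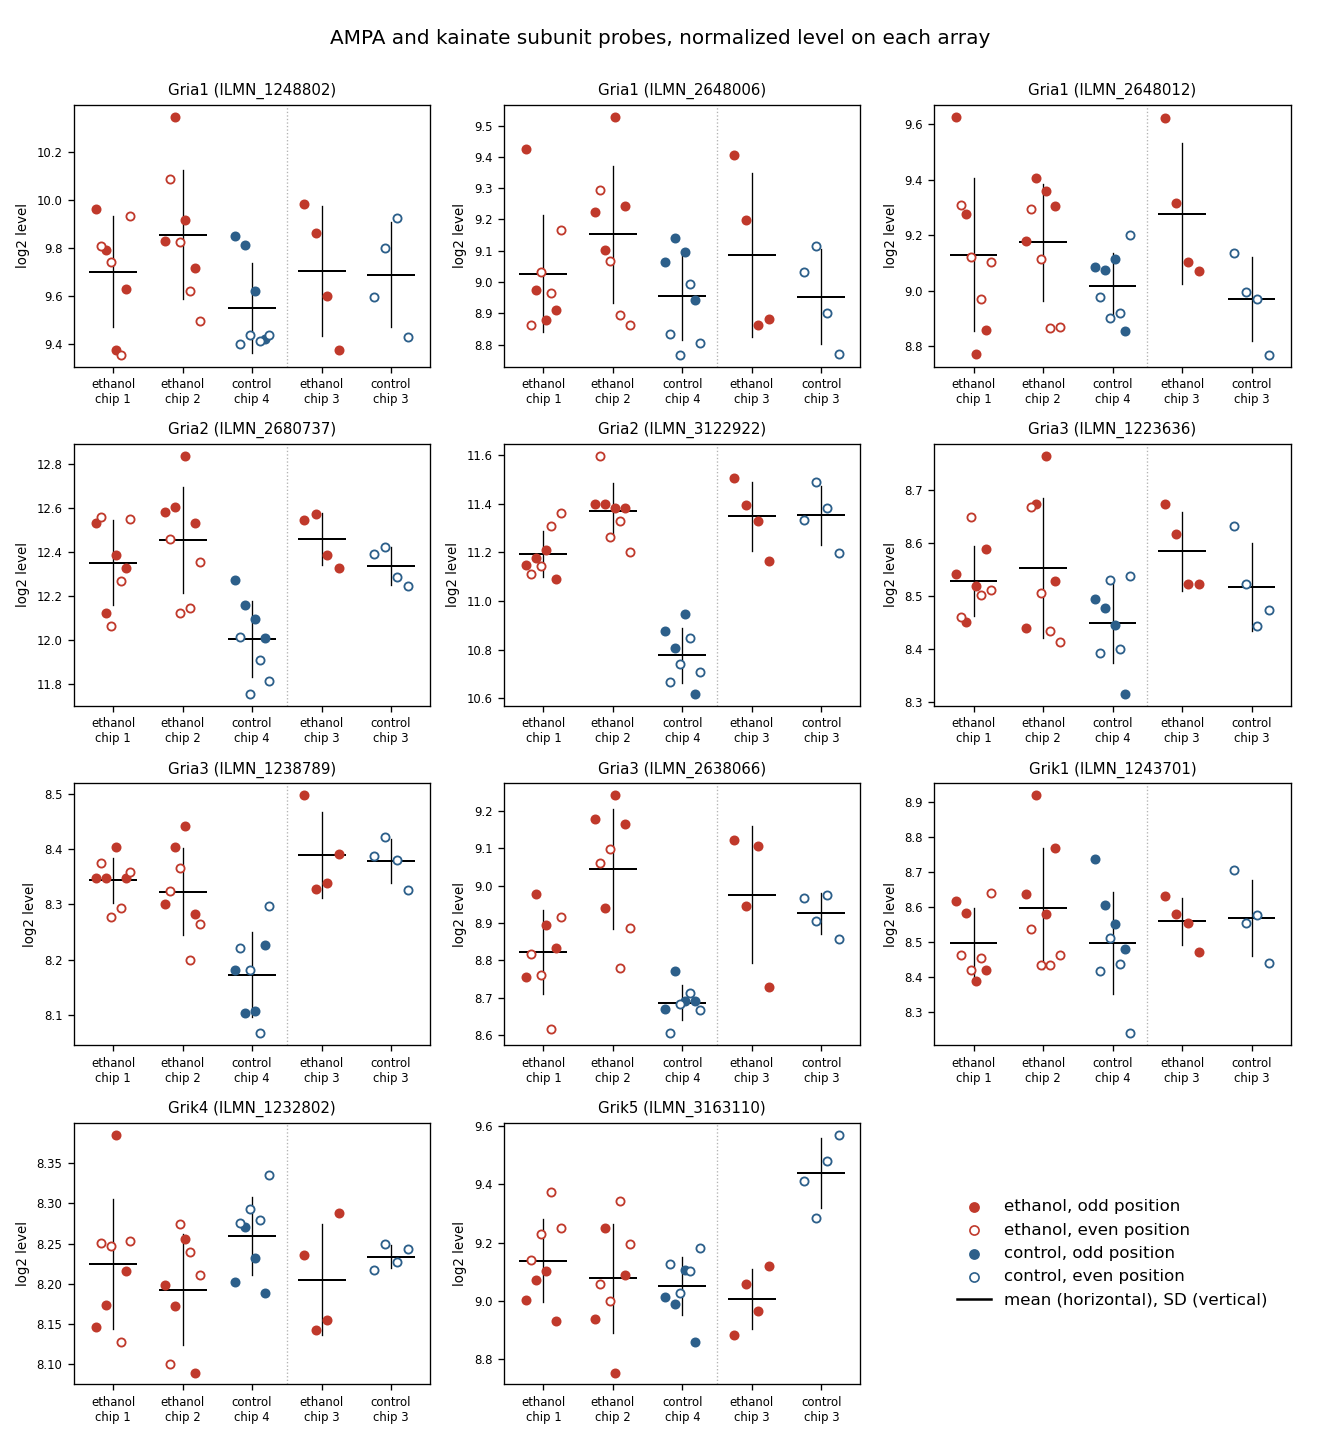
Normalized level (variance-stabilized log2 scale) of each of the 11 tested probes on every array, by treatment and chip, with filled points for odd and open points for even positions, horizontal bars for means and vertical bars for SD. The chip 4 controls of Gria2 ILMN_3122922 (10.62 to 10.95) lie below all other arrays, and the chip 3 controls of Grik5 (9.29 to 9.57) lie above the chip 3 ethanol-treated mice.

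Both Gria2 probes placed the chip 4 controls lowest. Centred within treatment and chip, they correlated across the 32 arrays with Pearson's r = 0.40 (permutation test, adjusted p = 0.0346) and Spearman's rho = 0.44 (permutation test, adjusted p = 0.0200), and r was 0.39 without the 2 arrays farthest from the median. Over the same arrays the overlapping Gria1 probes gave r = 0.72 (permutation test, adjusted p = 7e-05) and rho = 0.66 (permutation test, adjusted p = 0.000163), with r = 0.64 without 2 arrays. In all, 7 pairs of probes of 1 gene were related in this way, and the 3 Gria3 pairs gave r between 0.24 and 0.42.

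**Figure D3:**
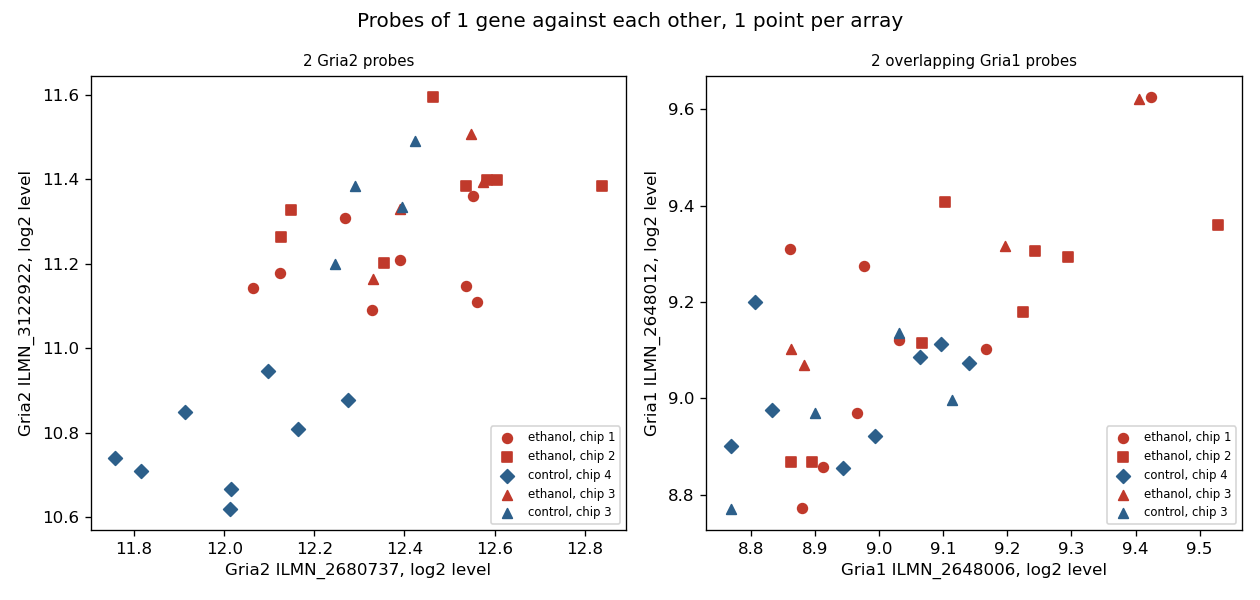
Level of 1 probe against another of the same gene (both axes variance-stabilized log2 scale), 1 point per array, coloured by treatment and shaped by chip. In the Gria2 panel the 8 chip 4 controls form a separate low set on the ILMN_3122922 axis (10.62 to 10.95), whereas in the panel of overlapping Gria1 probes the chips intermingle.

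Gria1 encodes a subunit whose delivery to synapses accompanies long-term potentiation. Probe ILMN_2648012 ranged from 8.77 to 9.63 with a median of 9.15 in ethanol-treated mice, and from 8.77 to 9.20 with a median of 8.99 in controls. The difference was 0.18 ± 0.07 (SE, adjusted p = 0.0720), which did not pass. The probe that overlaps it gave 0.13 ± 0.064 (SE, adjusted p = 0.143) and ILMN_1248802, at a separate site, 0.17 ± 0.079 (SE, adjusted p = 0.139).

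The chip 3 values of ILMN_2648012 were 9.62, 9.32, 9.10 and 9.07 in ethanol-treated mice and 9.14, 8.997, 8.97 and 8.77 in controls, with a difference of 0.31 ± 0.11 (SE, adjusted p = 0.0789). The highest control lay above 2 of the ethanol-treated mice, and the probe that overlaps it gave 0.13 ± 0.11 (SE, adjusted p = 0.473). At the separate site the chip 3 difference was 0.016, with a 95% interval from -0.25 to 0.28. Between chips 1 and 2 and chip 4 the 3 Gria1 differences were 0.13, 0.14 and 0.23, with adjusted p-values from 0.0700 to 0.236. Gria1 was therefore called at the FDR of 1% in no comparison made here. Under the looser rule, ILMN_2648012 was called higher over all arrays (1.13-fold) and on chip 3 (1.24-fold), where 1662 of 10187 probes were called. By that rule ILMN_1248802 was called higher between chips 1 and 2 and chip 4 (1.17-fold), where 1860 of 10187 were called. The rule also called Gria1 probes where treatment does not enter. ILMN_2648006 was higher at odd than at even positions within chips 1, 2 and 4, by a log2 difference of 0.17. ILMN_1248802 was higher in even-position controls of chip 3 than in those of chip 4, by 0.27. The upper ends of the Gria1 95% intervals over all arrays lay between 0.26 and 0.33.

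Gria3, an X-linked AMPA subunit, was measured by 3 probes at separate sites. Which Gria3 transcripts each of them counts was not examined. Their differences over all arrays were 0.077 ± 0.034 (SE, adjusted p = 0.106) for ILMN_1223636, 0.10 ± 0.033 (SE, adjusted p = 0.0274) for ILMN_1238789 and 0.17 ± 0.055 (SE, adjusted p = 0.0222) for ILMN_2638066. None passed the FDR of 1%. Of ILMN_1238789, 19 of 20 ethanol-treated mice lay above the control median, and the same number did so for ILMN_2638066.

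The Gria3 calls came between the separate chips and not on chip 3. Chips 1 and 2 exceeded chip 4 by 0.16 ± 0.032 (SE, adjusted p = 0.000722) with ILMN_1238789 and by 0.25 ± 0.06 (SE, adjusted p = 0.00378) with ILMN_2638066, both called. At odd positions alone the differences were 0.21 (adjusted p = 0.00928) and 0.29 (adjusted p = 0.0307), and at even positions 0.12 (adjusted p = 0.159) and 0.20 (adjusted p = 0.0876), so only ILMN_1238789 at odd positions was called. The same probes differed on chip 3 by 0.010 (95% interval -0.099 to 0.12) and 0.050 (95% interval -0.11 to 0.21). The difference between the chip sets was not called for either probe, with adjusted p-values of 0.101 and 0.192.

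The chip 4 controls of ILMN_1238789 lay between 8.07 and 8.30, and the chip 3 controls had levels of 8.39, 8.42, 8.38 and 8.33. These groups did not overlap, and the difference was 0.21 ± 0.048 (SE, adjusted p = 0.0107). ILMN_2638066 gave 0.24 ± 0.042 (SE, adjusted p = 0.00230) for the same controls, again with no overlap. ILMN_1238789 was detected on 29 of 32 arrays, and the 3 arrays that missed it were chip 4 controls. This probe was dim, and with a background correction by normexp its all-array difference was 0.34 in place of 0.10.

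Gria4, an AMPA subunit known from fast-spiking interneurons, was near background. Its probe was detected on 13 of 20 ethanol and 6 of 12 control arrays and was not tested. By chip it was detected on 8 of 8 arrays of chip 1, 4 of 8 of chip 2, 2 of 8 of chip 4, and on chip 3 on 1 of 4 ethanol and 4 of 4 control arrays. Its chip 3 levels were 8.10, 8.08, 8.16 and 8.09 in ethanol-treated mice and 8.18, 8.19, 8.19 and 8.19 in controls, which did not overlap. The share of all probes that separate these chip 3 groups is not given here. Fitted without the filter on dim probes, the all-array difference was 0.044 ± 0.028 (SE, adjusted p = 0.451).

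Among the kainate subunits, none was called over all arrays, and Grik5 was called on chip 3. Grik5 encodes a subunit that binds glutamate with high affinity and works only with the product of Grik1, Grik2 or Grik3. Its level ranged from 8.75 to 9.37 with a median of 9.08 in ethanol-treated mice, and from 8.86 to 9.57 with a median of 9.12 in controls. The difference over all arrays was -0.092 ± 0.062 (SE, adjusted p = 0.318).

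On chip 3 the Grik5 levels were 8.88, 9.06, 8.96 and 9.12 in ethanol-treated mice and 9.41, 9.29, 9.48 and 9.57 in controls. All 4 controls lay above all 4 ethanol-treated mice. Grik5 fell by 0.43 on the log2 scale (SE 0.067), a 1.35-fold difference with an adjusted p of 0.00278. At the FDR of 1% it was the only 1 of 11 member probes called on chip 3, where 2.67% of all probes were called. With limma, 2 of 11 member probes and 26.6% of all probes had an unadjusted p under 0.05 there.

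Between chips 1 and 2 and chip 4, Grik5 differed by 0.058 ± 0.059 (SE, adjusted p = 0.519), with a 95% interval from -0.064 to 0.18. The chip 4 controls had a mean of 9.05 ± 0.10 (SD, n = 8), and ethanol-treated mice had means of 9.14 ± 0.14, 9.08 ± 0.19 and 9.01 ± 0.10 on chips 1, 2 and 3. The chip 3 controls stood at 9.44 ± 0.12 (SD, n = 4). Controls of chip 3 exceeded those of chip 4 by 0.39 ± 0.062 (SE, adjusted p = 0.00142), with no overlap, and by 0.33 ± 0.065 (SE, adjusted p = 0.0102) at even positions alone. The difference on chip 3 was lower than that between the other chips, by a contrast of -0.49 ± 0.11 (SE, adjusted p = 0.00451).

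The part of position in the Grik5 value of chip 3 cannot be told apart from that of treatment. Within chips 1, 2 and 4, the odd minus even difference of Grik5 was -0.16 ± 0.047 (SE, adjusted p = 0.0265). It did not pass and had the direction of the chip 3 difference. With chip and position both in the model the difference was -0.27 ± 0.094 (SE, adjusted p = 0.288), which did not pass. The adjusted p on chip 3 was 0.0104 without the ethanol-treated mouse at 8.96, 0.0108 without the control at 9.48, and 0.0114 with normexp background correction, where the difference was -0.65.

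Grik1 ILMN_1243701 ranged from 8.39 to 8.92 with a median of 8.55 in ethanol-treated mice, and from 8.24 to 8.74 with a median of 8.53 in controls. The difference was 0.029 ± 0.046 (SE, adjusted p = 0.716), with a 95% interval from -0.065 to 0.12, and 11 of 20 ethanol-treated mice lay above the control median. The 2 other Grik1 probes were detected on 0 of 32 arrays, with signals between 136 and 189, and were not tested. Odd positions were higher by 0.15 ± 0.046 (SE, adjusted p = 0.0291) for ILMN_1243701.

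Grik2, which encodes a channel-forming kainate subunit, was detected on 3 of 32 arrays by its single probe and was not tested. Its signal ranged from 130 to 236, within or close to the range of the arrays' medians. Grik4, a high-affinity subunit like Grik5, was detected on 31 arrays. It ranged from 8.09 to 8.39 with a median of 8.21 in ethanol-treated mice and from 8.19 to 8.33 with a median of 8.25 in controls, and its difference of -0.043 ± 0.025 (SE, adjusted p = 0.242) had a 95% interval from -0.094 to 0.0084.

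**Figure D4:**
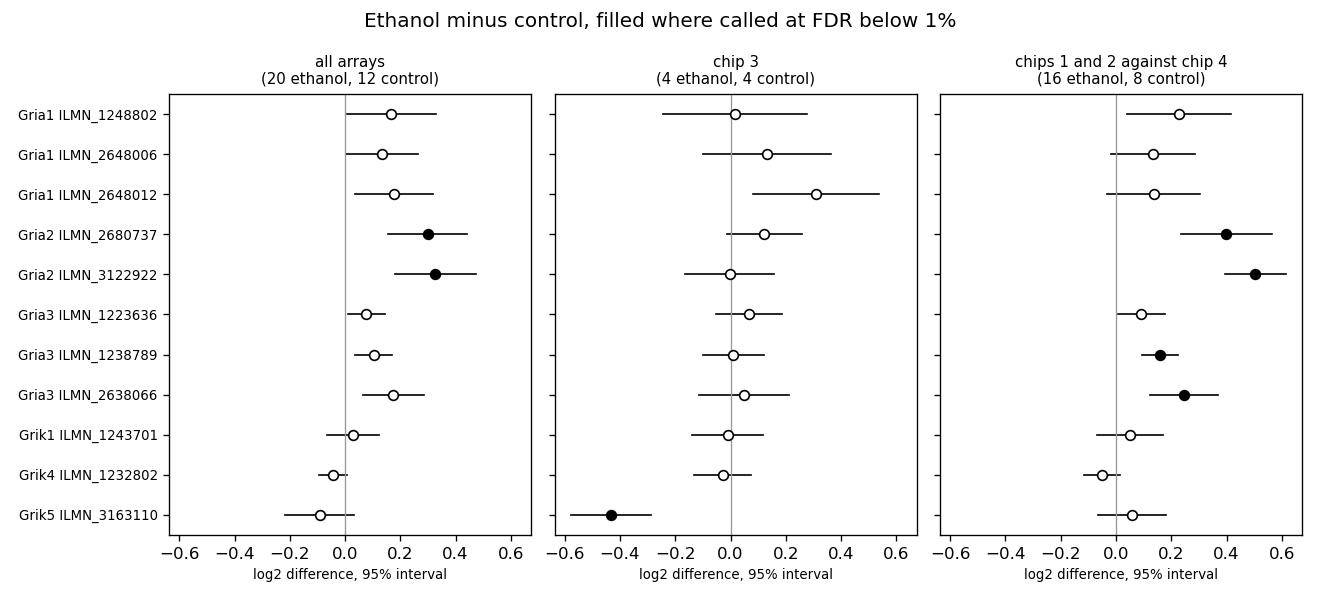
Log2 difference of ethanol-treated mice minus controls with 95% interval for the 11 tested probes, over all arrays, on chip 3, and between chips 1 and 2 and chip 4, filled where the FDR was below 1%. Gria2 is filled over all arrays and between the separate chips (0.40 and 0.50), and Grik5 is filled on chip 3 alone (-0.43).

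Set side by side, the comparisons called different members. Between chips 1 and 2 and chip 4, 4 of 11 member probes were called at the FDR of 1%, all higher and all of Gria2 and Gria3. There 11.9% of all probes were called. The all-array comparison holds the arrays of both others, so its values are not independent of them. With chip as a fixed block, which leaves chip 3 to carry the treatment, 0 of 11 member probes were called, where 0.147% of all probes were. At an unadjusted p under 0.05 there were 2 of 11 member probes and 19.6% of all probes. The difference between the chip sets was called for 2 of 11 member probes, ILMN_3122922 of Gria2 and Grik5, where 3.57% of all probes were called.

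Comparisons of arrays with the same treatment gave the scale of variation that treatment does not enter. Between chip 1 and chip 2 of ethanol-treated mice, limma called 0 of 11 member probes, where 0.0393% of all probes were called, and 2 of 11 had an unadjusted p under 0.05, as had 14.95% of all probes. Between odd and even positions it called 0 of 11, where 3.91% of all probes were called, and 5 of 11 had an unadjusted p under 0.05, as had 28.3% of all probes.

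Between the controls of chip 3 and chip 4 it called 3 of 11, namely ILMN_3122922 of Gria2, ILMN_2638066 of Gria3, and Grik5, all higher on chip 3, where 4.42% of all probes were called. At even positions alone both Gria2 probes were called, 2 of 11, where 1.43% of all probes were called. The Gria2 difference between the 2 sets of controls (0.57) exceeded the all-array difference between treatments (0.33).

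**Figure D5:**
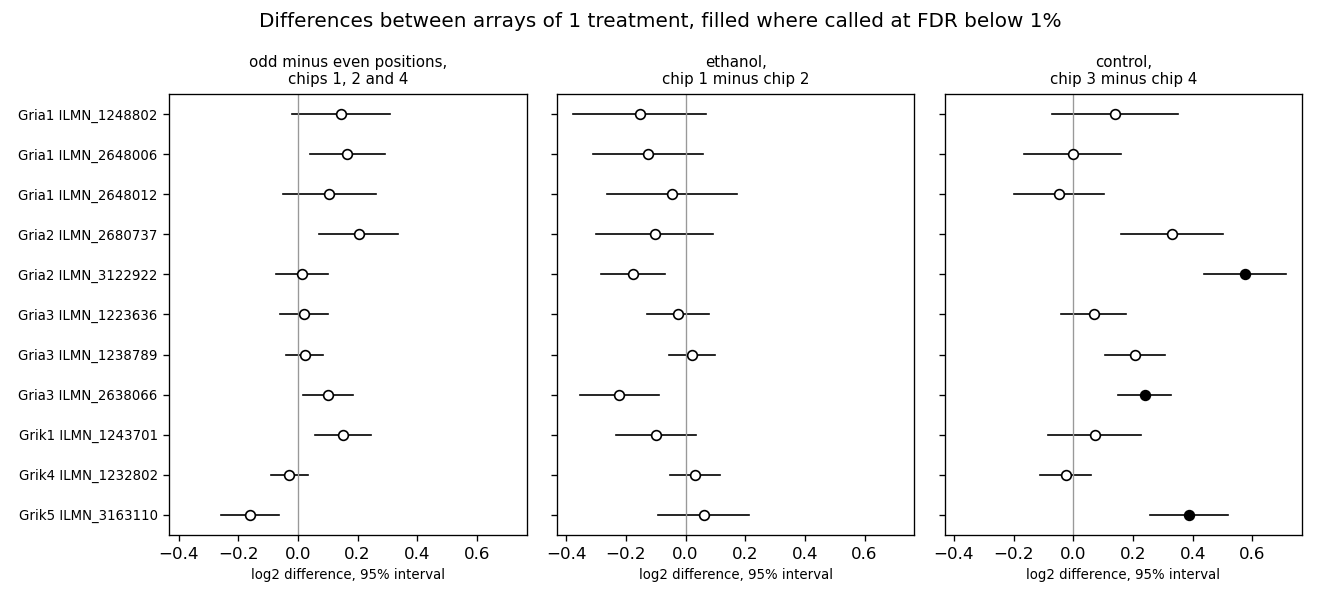
Log2 difference with 95% interval for the 11 tested probes between odd and even positions within chips 1, 2 and 4, between chips 1 and 2 of ethanol-treated mice, and between chips 3 and 4 of controls, filled where the FDR was below 1%. The filled points are all in the control panel, with Gria2 ILMN_3122922 at 0.57, Grik5 at 0.39 and Gria3 ILMN_2638066 at 0.24.

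Genes that assemble, carry or edit these receptors were examined beside the members, and their differences went in both directions. Of 40 related genes, 31 had a probe and 25 were tested with 39 probes, of which 0 were called higher and 4 lower over all arrays, beside 3.49% and 4.71% of all probes. The looser rule called 3 higher and 5 lower, beside 5.84% and 5.37% of all probes. Their median log2 difference was 0.0062, against -0.0027 over all probes tested. By group, 2 of 21 probes of auxiliary and other receptor-associated proteins and 2 of 14 of trafficking and anchoring genes were called lower. The 2 of the first group were the secreted pentraxins Nptx1 and Nptx2, and no probe of its other members, the auxiliary subunits among them, passed. Of the editing enzymes, 0 of 4 probes were called in either direction.

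Arc, an activity-induced gene whose product draws AMPA receptors into the cell, had the largest change of the 4. Its mean level was 10.43 after ethanol (SD 0.36, n = 20) and 10.91 among controls (SD 0.26, n = 12). Arc fell by 0.48 on the log2 scale (adjusted p = 0.00237). On chip 3 the difference was -0.24 (adjusted p = 0.311) and between the other chips -0.55. Epb4.1l1, a cytoskeletal protein that binds the Gria1 tail, fell by 0.25 with probe ILMN_1217998 (adjusted p = 0.00229), and fell on chip 3 as well by 0.36 (adjusted p = 0.00581), while its other tested probe had -0.15 over all arrays (adjusted p = 0.0260).

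The neuronal pentraxins Nptx1 and Nptx2, which gather AMPA receptors at synapses, fell by 0.18 (adjusted p = 0.00406) and 0.16 (adjusted p = 0.00332). Their chip 3 differences were -0.26 (adjusted p = 0.0164) and -0.045 (adjusted p = 0.729), against -0.12 and -0.21 between the other chips. Nptx1 was also lower at odd positions by a difference of -0.15 (adjusted p = 0.00529). Among the related genes not called, the largest differences were all positive. Cacng3, an auxiliary subunit that traffics AMPA receptors, had 0.29 (adjusted p = 0.0259) and 0.19 (adjusted p = 0.0835) with its 2 probes, Cacng5 0.16 (adjusted p = 0.390), the scaffold Grip1 0.15 (adjusted p = 0.0614) and Sacm1l 0.13 (adjusted p = 0.01001).

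Markers of the cell types in the slab showed what else moved with the chips. Of 10 neuronal marker genes 7 were tested, while the probes of Snap25 and Nefl were detected on 0 arrays and that of Tubb3 on 1. The summed level of the neuronal list ranged from 50767 to 55994 on chip 4, from 53699 to 58419 in the ethanol-treated mice of chips 1 and 2 and from 55156 to 57692 in the chip 3 controls. It was thus low on chip 4 with overlap, as was the Gria2 probe ILMN_2680737, whereas the chip 4 levels of ILMN_3122922 lay below all others. The part of the neuronal list in the Gria2 result was not tested. Over all arrays 0 of 8 neuronal marker probes were called, with a median difference of 0.047.

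Excitatory neuron markers gave 0 called higher and 2 lower of 4 probes, namely Slc17a7 (-0.26) and Nrgn (-0.18). The tested Camk2a probes did not pass and went in opposite directions (0.19, adjusted p = 0.0120, and -0.096, adjusted p = 0.332). The sum of the excitatory list on chip 3 was 21572 to 23035 in ethanol-treated mice against 23512 to 27218 in controls. On the same chip the interneuron sum was 26593 to 27424 against 21942 to 24545, the astrocyte sum 29768 to 32237 against 25478 to 28139, the endothelial sum 4046 to 4407 against 3703 to 3873 and the olfactory bulb sum 1829 to 2335 against 920 to 1467. These 5 sums did not overlap between the groups of chip 3, where Grik5 was called, and their part in that result was not tested. The neuron, oligodendrocyte, oligodendrocyte precursor, microglia, striatum and blood sums overlapped there. The share of all probes that separate these groups is not given here. Within each of the 5 lists but that of the olfactory bulb, single probes differed in both directions on chip 3, such as endothelial Cldn5 (0.42) and Ly6c1 (-0.12).

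Over all arrays, Aqp4 (0.45) was the 1 astrocyte probe of 8 called. Of the interneuron (7 probes), oligodendrocyte (15), oligodendrocyte precursor (3), microglia (9), endothelial (5), striatum (4), olfactory bulb (3) and blood (2) lists, limma called 0 probes. The olfactory bulb genes Eomes and Tbx21 were detected on 8 and 1 arrays and the striatal gene Adora2a on 0.

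Genes with the most similar pattern were sought for the brightest tested probe of each member, by Pearson's correlation over 32 arrays after centring within treatment and chip. For Gria2, by probe ILMN_2680737, they were BC008163 (r = 0.86), Wipi1 (0.82) and Ecd (0.81). These fell to 0.78, 0.73 and 0.67 once odd and even positions were centred as well. The other Gria2 probe gave only r = 0.40 with ILMN_2680737 after centring within treatment and chip, so the likeness is that of 1 probe. For Gria1 they were Ptp4a2 (0.83), Trim2 (0.81) and Ddx6 (0.80), and for Gria3 they included Zfp318 (0.76) and Polr2h (0.72). The Gria3 probe used, ILMN_2638066, gave r = 0.24 and 0.33 with the other Gria3 probes.

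For Grik1 the closest were Sv2a (0.88), a synaptic vesicle protein, Napb (0.84) and Lias (0.84). For Grik5 they were 1700021K19Rik (0.79), Wscd1 (0.78) and LOC100046953 (0.76), and Grik4 had none above 0.67, with Mapk11, 4933424B01Rik and Fbxo9 (0.67, 0.66 and 0.66). The arrays of a chip share its hybridization, and the correlations are descriptions without a test.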

How the data were processed

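Total RNA from FCtx was labelled and hybridized by the authors, who per the labels included both groups in each batch of RNA extraction. They deposited a table that is not normalized. Its intensities, as deposited, are mean bead signals per probe and array on a linear scale. The authors also deposited detection p-values, counts of beads per probe and other values, the standard errors over beads. The background step and scanner software are not given in the sources used here. All columns were matched to mice by their labels.

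The Methods and labels name lumi (variance stabilization and quantile normalization) and limma. The transform was written anew from the bead values, followed by quantile normalization, using R 4.3.3 and the data.table package (1.17.8). Of 25697 probes, the 10187 whose detection p-value was under 0.01 on 24 or more of 32 arrays entered limma 3.58.1 (lmFit and eBayes, no covariate), with Benjamini-Hochberg adjustment over all of them. A probe was called at an FDR below 1%. The scale compresses dim signals, so differences of dim probes are understated. The number of arrays limits precision, and the median SD within group was 0.10 on the log2 scale.

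The members, related genes and marker lists were chosen with earlier results of these data known, so counts over them are descriptions. Named are all members, related genes called or with the 4 next largest differences, and the 3 genes most correlated with each member. Some items that these rules name are not reported here. Correlations used 100000 permutations, two-sided, for which the smallest possible p is 1e-05. The fit of ethanol against control and the variance-stabilizing transform were tested on simulated data. Plots were drawn with Python 3.11.15, numpy 2.4.6, pandas 2.3.3 and matplotlib 3.10.9.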

Additional observations from a re-analysis of the deposited data

Results flagged for a closer look

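For 2 of the 11 tested probes the difference between ethanol-treated mice and controls was not the same on chip 3 as between the other chips, by limma's contrast of the 2 differences at an FDR below 1%. For the Gria2 probe ILMN_3122922 the contrast was -0.51 on the log2 scale (adjusted p = 0.000849), from -0.0034 on chip 3 and 0.50 between chips 1 and 2 and chip 4. For Grik5 it was -0.49 (adjusted p = 0.00451), from -0.43 on chip 3 and 0.058 between the other chips. The controls of chip 3 and chip 4 did not overlap for either probe. The second Gria2 probe, ILMN_2680737, had a contrast of -0.28 (adjusted p = 0.219). Of 55 sets of arrays, 11 probes in each of 5 combinations of treatment and chip, 0 held an array far from the others by Dixon's criterion, which chance passes in about 1 of 20 sets.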

How the results depend on the processing

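The count of 2 member probes called over all arrays was the same on a plain log2 scale, with normexp, with all probes tested, with probes detected on all arrays, with array weights, with position as a covariate and without the chip 4 control with the fewest probes detected. It was 0 with median scaling, with chip as a fixed or a random block, and with chip and position together (1 of 11 at an unadjusted p under 0.05 by limma, beside 9.37% of all probes), and 4 under the looser rule or without chip 3. With median scaling the Gria2 differences were 0.34 and 0.38 (adjusted p = 0.0489 and 0.0290), and 99 of all probes were called in place of 836, 82.8% of them higher in place of 42.6%. With chip as a random block they were 0.26 and 0.25 (adjusted p = 0.0601 and 0.0459), and 68 probes were called, against 15 with the fixed block and 1 with chip and position. On chip 3 the count of 1 was 0 with normexp, and between 0 and 1 when 1 array was left out, being 0 without the ethanol-treated mouse at a Grik5 level of 8.96 or the control at 9.48. Between chips 1 and 2 and chip 4 the count of 4 was 3 with median scaling and with probes detected on all arrays, 2 at odd positions only, 2 at even positions only and 4 otherwise. The comparisons by position and without chip 3 were chosen after the data had been seen.

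Directions over all arrays reversed with chip as a fixed block for Gria2 ILMN_3122922 (-0.0034) and Grik1 (-0.010), with position as a covariate for Grik1 (-0.0013), and without chip 3 for Grik5 (0.058). With chip and position together they reversed for Gria1 (-0.13 and -0.032), both Gria2 probes (-0.081 for ILMN_2680737 and -0.017), Gria3 (-0.012 and -0.051), Grik1 (-0.16) and Grik4 (0.00072). On chip 3 they reversed with array weights for Gria1 ILMN_1248802 (-0.016) and Gria3 ILMN_1238789 (-0.0025). With 1 chip 3 array left out, ILMN_1248802 ranged from -0.076 to 0.13, Gria2 ILMN_3122922 from -0.056 to 0.058, Gria3 ILMN_1238789 from -0.026 to 0.031 and Grik1 from -0.053 to 0.035. No probe reversed between chips 1 and 2 and chip 4 under the alternatives run. The cause of these changes was not tested. No paired analysis was possible because mouse numbers are not shared between the groups. Each group on chip 3 has 4 mice, and 4 of the 15 probes lay too near background to be tested.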
